A study of Mus musculus with 8 samples.

Results

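Angiopoietins and vascular endothelial growth factors (VEGF) are secreted ligands by which surrounding tissue signals to blood vessels. The genes described here are the angiopoietins Angpt4, Angpt1 and Angpt2, their receptor gene Tek with its relative Tie1, the ligand gene Vegfa with its receptor gene Kdr, and the endothelial markers Pecam1, Cdh5 and Erg. They are 10 of 56748 gene identifiers in the count table, and all 10 passed the expression filter that left 21508 genes for testing. Angpt4 was chosen by its measured rise in the libraries lacking both copies of Ctnnb1, so its difference is given as a description with no test. The other 9 were taken by function, with results of these data already known.

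Counts came from bulk RNA sequencing of 8 libraries of tdTomato-positive cells sorted from mouse lower-jaw molars at postnatal day 10, after tamoxifen at day 3. The 4 cKO libraries are labelled Ctnnb1(-/-) and the 4 cHet libraries Ctnnb1(+/-), so the comparison group also lacks 1 copy of the beta-catenin gene. By the labels these are CXCL12+ apical papilla cells, from the tissue below a growing tooth root, although the tissue field reads dental pulp. They name neither the Cre driver nor the deleted exons, and do not say whether libraries came from separate animals.

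Total counts lay between 44444033 and 50051392 per library. Ctnnb1 counted over the whole gene had 277 ± 39.2 CPM (counts scaled to library size with TMM factors) in cKO and 257 ± 40.2 CPM in cHet libraries (SD, n = 4 each), which checks no deletion of single exons. Cxcl12, the gene that names the cells, was detected in every library, between 491 and 1001 CPM in cKO and between 66.4 and 268 CPM in cHet. The 9 apical papilla markers summed to 3282 to 6534 CPM in cKO and 634 to 1774 CPM in cHet, and none of them was at 0. Of these, 8 had positive log2 values, while Tac1 averaged 8.53 CPM in cKO and 26.8 CPM in cHet. Other cell types were present too. Omp, which marks olfactory neurons, had 1927 to 2219 CPM in cKO and 1739 to 3940 CPM in cHet, and the 10 olfactory neuron markers summed to 5732 to 7055 CPM in cKO and 6312 to 12064 CPM in cHet. Ameloblast markers summed to 4699 to 8535 CPM in cKO and 2309 to 11432 CPM in cHet, and epithelial markers to 689 to 799 CPM in cKO and 678 to 1009 CPM in cHet. Erythroid markers summed to 54.9 to 103 CPM in cKO and 51.8 to 99.0 CPM in cHet. The summed level of 12 general mesenchyme markers was 14390 to 30332 CPM in cKO and 3984 to 12945 CPM in cHet. Col3a1 alone averaged 7604 CPM in cKO and 2930 CPM in cHet. Of the 12, 10 had positive log2 values and 2 went the other way. Lum averaged 479 CPM in cKO and 757 CPM in cHet, and Dcn 167 CPM in cKO and 343 CPM in cHet. Summed over 10 neutrophil and platelet markers, cKO libraries held 22.1 to 420 CPM and cHet libraries 34.2 to 14816 CPM, the highest being cHet12. Their part in the differences described here was not tested.

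As background, angiopoietin 1 is the agonist of the Tie2 receptor, which Tek encodes, and it steadies endothelial cells in resting vessels. Angiopoietin 2 acts as an agonist or an antagonist of the same receptor depending on context, and mouse angiopoietin 4 also binds Tie2. Tie1 has no high-affinity ligand among them and modulates Tie2. VEGF-A drives endothelial growth mainly through VEGF receptor 2, the product of Kdr. In teeth, vessels enter the pulp through the open root tip, beside the apical papilla.

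The 5′ flanking sequences of Angpt4 and of its receptor gene Tek are shown because Angpt4 had the largest log2 fold change of the 10 genes and because beta-catenin acts on DNA through TCF and LEF factors. RefSeq windows on GRCm38.p6 matched 6 of the 10 genes, in 9 windows, and the 250 bases before each annotated start were searched on both strands for CTTTGAT and CTTTGTT, which do not overlap each other. These motifs were chosen with the sequences in view. The match is in capitals, read 5′ to 3′ on the gene's strand.
Angpt4, chr2:151910957-151911206, + strand: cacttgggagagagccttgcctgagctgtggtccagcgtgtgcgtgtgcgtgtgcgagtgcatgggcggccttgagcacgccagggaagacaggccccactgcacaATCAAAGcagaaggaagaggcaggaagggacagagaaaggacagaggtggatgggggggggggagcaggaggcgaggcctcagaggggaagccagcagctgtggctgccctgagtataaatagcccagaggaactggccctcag
Tek, chr4:94739039-94739288, + strand: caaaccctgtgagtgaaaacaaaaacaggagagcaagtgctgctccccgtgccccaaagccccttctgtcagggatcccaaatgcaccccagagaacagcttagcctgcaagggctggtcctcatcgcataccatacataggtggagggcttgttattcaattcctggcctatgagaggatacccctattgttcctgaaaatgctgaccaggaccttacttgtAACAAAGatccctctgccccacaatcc
In Angpt4 the capitals are CTTTGAT on the opposite strand, 144 to 138 bases before the start. In Tek they are CTTTGTT on the opposite strand, 27 to 21 bases before the start. These were 2 of the 9 windows, and the windows of Tie1, Vegfa, Kdr and Erg held neither motif. Over all 32851 promoter windows of the same length 3.21% held CTTTGAT and 8.06% held either motif. A match is a string of letters in the window and no evidence of binding.

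Of the 3 angiopoietin genes, Angpt1 was called higher in cKO libraries, Angpt2 did not pass the test, and Angpt4 is described with no test. In such bulk samples, more cells of a type and more RNA per cell cannot be told apart. Angpt4 (ENSMUSG00000027460.8) had 796, 309, 615 and 939 CPM in cKO7, cKO9, cKO14 and cKO15, against 49.1, 11.2, 50.6 and 33.8 CPM in cHet8, cHet11, cHet12 and cHet14. The lowest cKO library, cKO9, lay far above the highest cHet library, cHet12. The means were 665 ± 272 CPM in cKO and 36.2 ± 18.3 CPM in cHet (SD, n = 4 each), 18.4-fold, a log2 fold change of 4.20 (SE 0.55). By size this was the twelfth largest of the positive changes over all tested genes.

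Angpt1 rose in cKO. It had 33.8, 25.9, 26.3 and 57.9 CPM in cKO7, cKO9, cKO14 and cKO15, and 14.4, 7.45, 8.67 and 10.5 CPM in cHet8, cHet11, cHet12 and cHet14. The groups did not overlap, and cKO15 was the highest library. The log2 fold change was 1.81 (SE 0.33, edgeR adjusted p = 0.0471). This call sits at the threshold, with an adjusted p of 0.0520 under RLE factors. Leaving out a single library ended it for 7 of the 8 libraries (adjusted p between 0.0546 and 0.157), and the adjusted p was 0.0288 without cKO9. In the reference annotation an exon of the predicted gene Gm17473 overlaps Angpt1 on the opposite strand, and the cDNA kit does not mark strand.

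Angpt2 did not pass the test. It stood at 20.1, 9.20, 10.8 and 18.6 CPM in cKO7, cKO9, cKO14 and cKO15, and at 8.98, 3.60, 2.70 and 2.40 CPM in cHet8, cHet11, cHet12 and cHet14. The groups are separated only by the narrow gap between cKO9 and cHet8. The log2 fold change was 1.73 (SE 0.49, edgeR adjusted p = 0.137). The balance of Angpt2 to Angpt1, as a ratio of normalised counts within each library, was 0.420 ± 0.122 in cKO and 0.412 ± 0.177 in cHet (SD, n = 4 each, two-sided exact permutation p = 0.83).

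**Figure D1:**
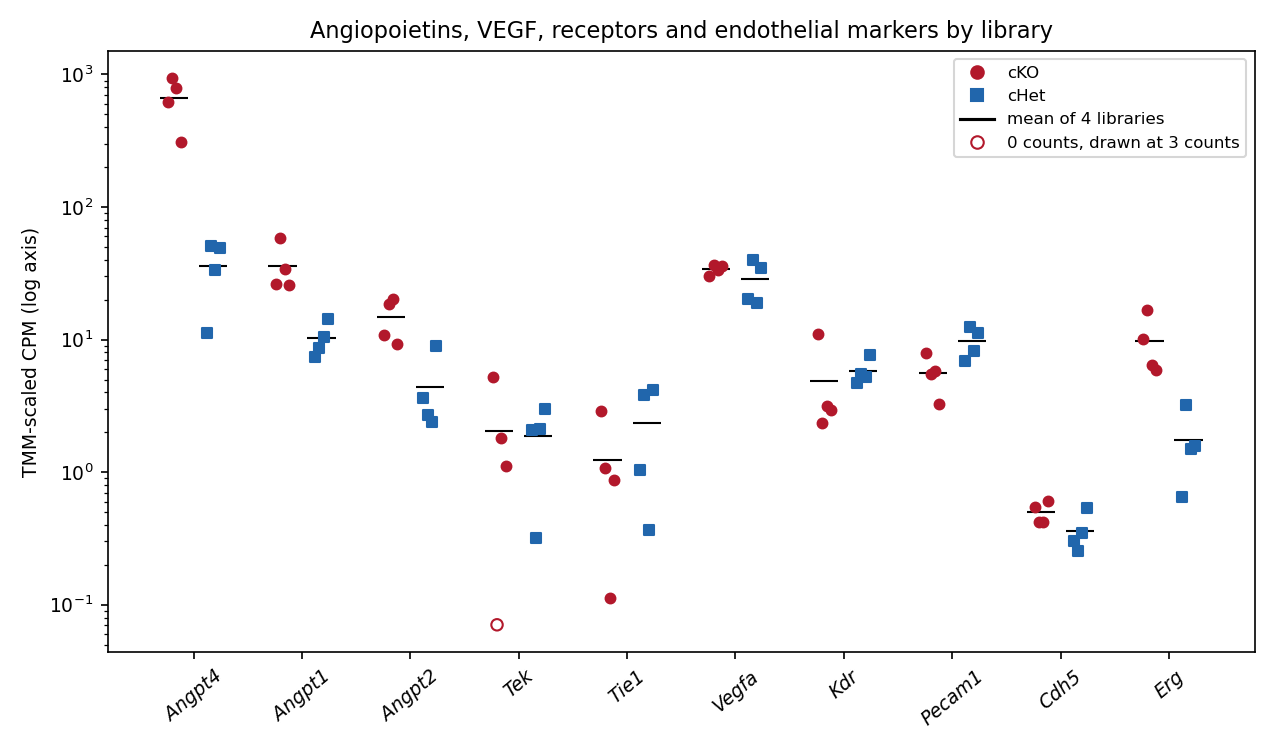
Normalised counts of the 10 genes in each library, as CPM with trimmed-mean (TMM) scaling on a log axis, cKO as red circles and cHet as blue squares, with bars at the mean of 4 libraries. The 3 angiopoietins and Erg have groups that do not overlap, while Tek, Tie1, Vegfa, Kdr, Pecam1 and Cdh5 overlap, and Tek has 0 counts in cKO15. Angpt4 was chosen by its rise. Without overlap, 6.46% of all tested genes stood higher and 3.68% lower.

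Set per kilobase of exon, Angpt4 was the most abundant of the 10 transcripts in both genotypes, at 285 ± 116 CPM per kb in cKO and 15.5 ± 7.85 CPM per kb in cHet (SD, n = 4 each). Vegfa came next, with 7.99 ± 0.665 in cKO and 6.64 ± 2.47 CPM per kb in cHet, near Angpt1 in cKO (6.91 ± 2.90) and above it in cHet (1.97 ± 0.579). Angpt2 had 3.98 ± 1.49 in cKO and 1.20 ± 0.836 CPM per kb in cHet. Every receptor and endothelial marker except Erg had group means of at most 1.56 CPM per kb, with Cdh5 lowest at 0.119 ± 0.0215 in cKO and 0.0859 ± 0.0297 CPM per kb in cHet. Neighbours in the low end of this order, Tek, Tie1 and Kdr, lay within each other's spread. Of the per-length sum of the 3 angiopoietins, Angpt4 made up 94.7% to 97.1% in cKO libraries and 66.5% to 90.0% in cHet libraries.

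The Tie receptors were scarce, and neither passed the test. Tek had 1.81, 1.12, 5.19 and 0 CPM in cKO7, cKO9, cKO14 and cKO15, against 3.01, 2.09, 0.319 and 2.12 CPM in cHet8, cHet11, cHet12 and cHet14. The value of 0 in cKO15 allows up to 3 counts, or 0.0706 CPM, by counting error alone. cKO14 was the highest of the 8 libraries and cKO15 the lowest, so the cKO libraries spanned the whole range. The log2 fold change was 0.11 (SE 1.23, edgeR adjusted p = 0.978), and it was −0.97 without cKO14.

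Tie1, the orphan relative, had 0.111, 0.873, 2.89 and 1.08 CPM in cKO7, cKO9, cKO14 and cKO15, against 4.14, 1.04, 3.82 and 0.367 CPM in cHet8, cHet11, cHet12 and cHet14. The groups overlapped over most of their range. Its log2 fold change was −0.92 (SE 0.98, edgeR adjusted p = 0.699), −1.78 without cKO14 and −0.49 without cHet8.

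Neither Vegfa nor its main receptor gene Kdr passed the test. Vegfa had 33.8, 35.9, 30.4 and 36.8 CPM in cKO7, cKO9, cKO14 and cKO15, against 34.7, 20.3, 40.1 and 18.8 CPM in cHet8, cHet11, cHet12 and cHet14. The cKO libraries lay close together, inside the range of the cHet libraries. The log2 fold change was 0.27 (SE 0.26, edgeR adjusted p = 0.659).

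Kdr had 3.14, 2.93, 11.0 and 2.35 CPM in cKO7, cKO9, cKO14 and cKO15, and 7.63, 4.74, 5.46 and 5.23 CPM in cHet8, cHet11, cHet12 and cHet14. In 3 cKO libraries it was below every cHet library, while cKO14 was above them all. The log2 fold change was −0.25 (SE 0.52, edgeR adjusted p = 0.864) and −1.05 without cKO14 (adjusted p = 0.247).

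The 3 endothelial markers did not share a direction, and none passed the test. Pecam1, an adhesion molecule of endothelial junctions that platelets and leukocytes also carry, had 5.84, 3.25, 7.86 and 5.53 CPM in cKO7, cKO9, cKO14 and cKO15. It had 11.3, 6.92, 12.4 and 8.18 CPM in cHet8, cHet11, cHet12 and cHet14. The groups overlapped, with cKO14 above cHet11, and the log2 fold change was −0.79 (SE 0.33, edgeR adjusted p = 0.274). Beside this, the summed level of 9 macrophage markers was 117 to 350 CPM in cKO and 181 to 3285 CPM in cHet, with cHet12 and cHet8 highest both there and in Pecam1. Lyz2 alone gave 41.5 to 199 CPM of that sum in cKO and 56.3 to 2455 CPM in cHet, the most in cHet12. The neutrophil and platelet sum was also highest in cHet12. None of the 9 macrophage markers was at 0 in a library. Their part in the Pecam1 values was not tested.

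Cdh5, which encodes the endothelial cadherin of adherens junctions, was barely detected. It had 0.424, 0.604, 0.543 and 0.423 CPM in cKO7, cKO9, cKO14 and cKO15, and 0.540, 0.303, 0.255 and 0.346 CPM in cHet8, cHet11, cHet12 and cHet14. These are 12 to 28 counts in a library, and the groups overlapped (log2 0.46, SE 0.44, edgeR adjusted p = 0.651).

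Erg, an ETS transcription factor of endothelium that mouse cartilage also expresses, had 6.44, 5.93, 10.1 and 16.6 CPM in cKO7, cKO9, cKO14 and cKO15. It had 1.58, 0.645, 3.23 and 1.49 CPM in cHet8, cHet11, cHet12 and cHet14. The groups did not overlap. The mean was 5.64-fold higher in cKO, at a log2 value of 2.49 (SE 0.56) that did not pass over all genes (edgeR adjusted p = 0.0769) and did so without cKO9 (0.0492). Within each library, Erg counts were 1.10 to 3.01 times those of Pecam1 in cKO and 0.0932 to 0.260 times in cHet.

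In all, 1 of the 9 genes taken by function was called higher and 0 lower, where edgeR called 1.08% of all tested genes higher and 0.0558% lower. At an unadjusted p under 0.05, 4 of the 9 passed, Angpt1, Angpt2 and Erg as higher and Pecam1 as lower, beside 17.1% of all tested genes in either direction. With groups that do not overlap as the rule, 3 of the 9 stood higher and 0 lower, against 6.46% higher and 3.68% lower over all tested genes. DESeq2 called 9.46% of its genes higher and 4.82% lower, and limma voom 5.96% higher and 1.26% lower. Both added Angpt2 and Erg to Angpt1 (DESeq2 adjusted p = 0.00550 for Angpt2 and 0.000116 for Erg, voom 0.0377 and 0.0165). The median log2 fold change of the 9 genes was 0.27, beside −0.03 over all tested genes.

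Scaling the libraries to the mesenchyme markers, which moved the median of all genes to −1.16 on the log2 scale, lowered the log2 values of all 10 genes. Under it Angpt4 had a log2 value of 3.28, Erg 1.50, Angpt1 0.71 and Angpt2 0.70, all still positive. Relative to that shifted median, Angpt4 stood 4.44 higher, Erg 2.66, Angpt1 1.87 and Angpt2 1.86. Relative to the median under TMM scaling the values were 4.23, 2.52, 1.84 and 1.76 in the same order. Setting a gene against the median largely takes out the shift between scalings, so it is no separate check. Under mesenchyme scaling Vegfa had −0.71, Cdh5 −0.53 and Tek −1.06, and none of the 3 passed. All 3 lay above the shifted median, as they lay above the median under TMM scaling. Angpt1 was no longer called (adjusted p = 0.169). With the mean log2 level of the mesenchyme markers as a covariate Angpt4 had a log2 value of 2.86, and with that of the olfactory markers 3.52. With the mesenchyme covariate Angpt1 had 1.17 (edgeR adjusted p = 0.507), Angpt2 1.10 and Erg 1.17. With the olfactory covariate Angpt1 had 1.30 (edgeR adjusted p = 0.566), Angpt2 0.98 and Erg 1.76, and none of these passed. The mean log2 level of the mesenchyme markers was 7.81 to 8.71 in cKO and 6.15 to 7.90 in cHet libraries. That of the olfactory markers was 8.08 to 8.57 in cKO and 8.34 to 9.07 in cHet. Both covariates differed between the genotypes, so these fits cannot fully separate a covariate from genotype.

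**Figure D2:**
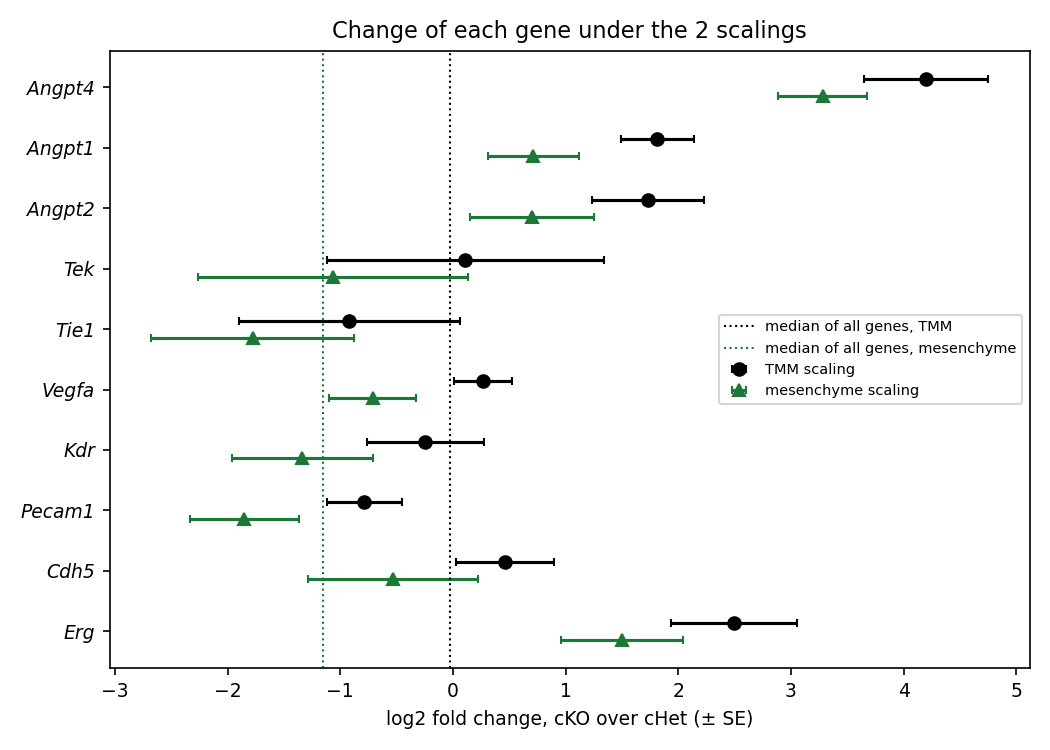
Log2 fold change of cKO over cHet with its SE for each gene under TMM scaling (black circles) and under scaling to the mesenchyme markers (green triangles), with dotted lines at the median of all tested genes. Angpt4, Angpt1, Angpt2 and Erg stay right of 0 under both, while Vegfa, Cdh5 and Tek lie right of 0 under TMM scaling and left of 0, at −0.71, −0.53 and −1.06, under mesenchyme scaling.

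Cxcl12 was itself 5.54-fold higher in cKO (log2 2.47, SE 0.46, edgeR adjusted p = 0.0497), so each gene was also set against Cxcl12 within its own library, as a ratio of normalised counts. Angpt4 had a ratio of 0.630 to 0.938 in cKO and 0.168 to 0.379 in cHet libraries, and the groups did not overlap. Angpt1 had 0.0322 to 0.0579 in cKO and 0.0504 to 0.118 in cHet. Angpt2 had 0.0132 to 0.0203 in cKO and 0.0157 to 0.0543 in cHet. For Erg the ratio was 0.00649 to 0.0166 in cKO and 0.00589 to 0.0188 in cHet. The groups overlapped for Angpt1, Angpt2 and Erg. The Angpt4 ratio contains the values by which that gene was chosen, and no test was made of these ratios.

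**Figure D3:**
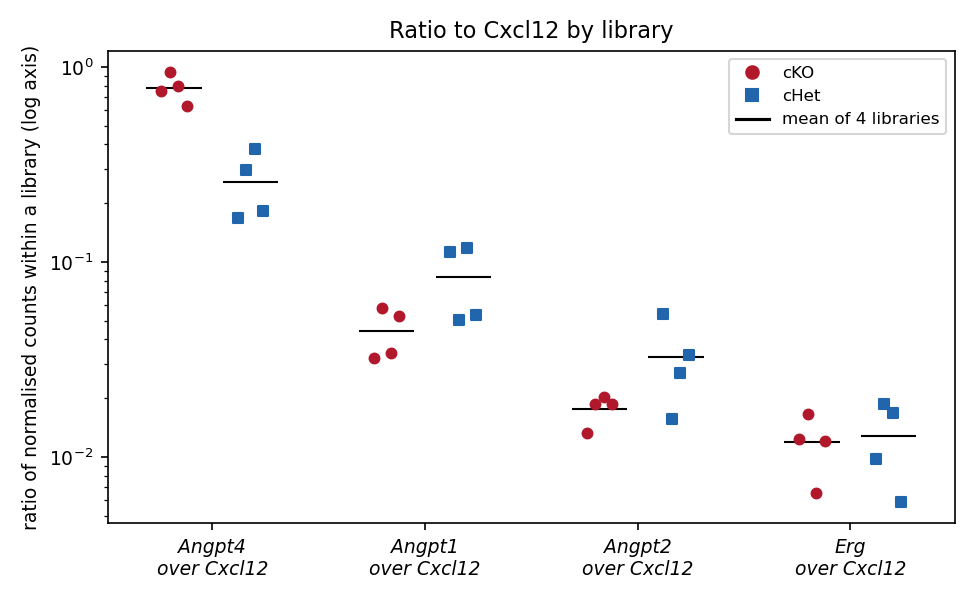
Ratio of normalised counts of Angpt4, Angpt1, Angpt2 and Erg to those of Cxcl12 within each library, on a log axis, cKO as red circles and cHet as blue squares with bars at the mean of 4 libraries. Angpt4 lies at 0.630 to 0.938 in cKO and at 0.168 to 0.379 in cHet, and the other genes overlap between groups.

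Of the 8 further genes of the VEGF family, edgeR called 0 higher and 0 lower, with 4 positive and 4 negative log2 values and a median of −0.02. At an unadjusted p under 0.05 edgeR passed 4 of the 8, against 17.1% of all tested genes. DESeq2 called Vegfb and Flt4 higher and Flt1 lower, and voom called Vegfb and Flt4 higher. Over all genes DESeq2 called 9.46% higher and 4.82% lower, and voom 5.96% higher and 1.26% lower. Flt4, the receptor of lymphatic endothelium for VEGF-C, had 17.4, 13.4, 21.9 and 40.4 CPM in cKO7, cKO9, cKO14 and cKO15. It had 3.97, 1.52, 7.03 and 2.59 CPM in cHet8, cHet11, cHet12 and cHet14, and the groups did not overlap (log2 2.62, SE 0.54, adjusted p = 0.0633). The 5 lymphatic markers beside it summed to 9.30 to 20.0 CPM in cKO and 10.2 to 23.4 CPM in cHet, and Lyve1, Reln and Mmrn1 were at 0 in at least 1 library.

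Flt1, the decoy-type VEGF receptor of endothelium, was lower in every cKO library than in any cHet library and did not pass, with 0.446, 0.157, 1.37 and 0 CPM in cKO7, cKO9, cKO14 and cKO15. It had 6.05, 1.93, 1.78 and 3.17 CPM in cHet8, cHet11, cHet12 and cHet14, (log2 −2.71, SE 1.14, edgeR adjusted p = 0.274). The ligand gene Vegfb averaged 21.3 ± 2.47 CPM in cKO and 12.5 ± 1.80 CPM in cHet (SD, n = 4 each, edgeR adjusted p = 0.0814). The placental growth factor gene Pgf averaged 11.2 ± 4.51 CPM in cKO and 6.53 ± 2.26 CPM in cHet (SD, n = 4 each, edgeR adjusted p = 0.338). The co-receptor gene Nrp1 averaged 129 ± 28.1 CPM in cKO and 172 ± 22.6 CPM in cHet, and Nrp2 158 ± 44.4 CPM in cKO and 131 ± 23.9 CPM in cHet. Neither passed in edgeR (adjusted p = 0.272 for Nrp1 and 0.590 for Nrp2).

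Of 10 further genes around Tie2, comprising regulators, adaptors, sheddases and angiopoietin-like genes, edgeR called 0, with 8 positive and 2 negative log2 values and a median of 0.42. At an unadjusted p under 0.05 it passed 4 of the 10, against 17.1% of all tested genes. DESeq2 called Foxo1, Angptl1, Angptl2 and Angptl4 higher, and voom the same without Angptl2. Over all genes DESeq2 called 9.46% higher and voom 5.96%. The angiopoietin-like gene Angptl1, whose product does not bind Tie2, came nearest, with 111 ± 46.1 CPM in cKO and 21.6 ± 10.4 CPM in cHet (SD, n = 4 each, edgeR adjusted p = 0.0533). Angptl4 averaged 64.1 ± 26.1 CPM in cKO and 22.8 ± 8.01 CPM in cHet, and Angptl2 82.3 ± 26.0 CPM in cKO and 36.9 ± 22.6 CPM in cHet. Foxo1, a transcription factor that Tie2 signalling restrains, averaged 91.0 ± 13.3 CPM in cKO and 64.5 ± 7.04 CPM in cHet. Ptprb, the endothelial phosphatase that opposes Tie2, had 1.07 to 10.5 CPM in cKO and 1.34 to 3.70 CPM in cHet (edgeR adjusted p = 0.398). The sheddase gene Adam17 averaged 76.9 ± 20.5 CPM in cKO and 60.4 ± 14 CPM in cHet (edgeR adjusted p = 0.521).

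Low oxygen is a known inducer of Vegfa, and a hypoxia response list of both targets and regulators is given beside it. The part of low oxygen in the values described here was not tested. Of the 15 genes of the list edgeR called 0, with 8 positive and 7 negative log2 values and a median of 0.12. At an unadjusted p under 0.05 it passed 5 of the 15, against 17.1% of all tested genes. DESeq2 called Vhl and P4ha1 higher and Slc2a1 and Ankrd37 lower, and voom called Ankrd37 lower. Over all genes DESeq2 called 9.46% higher and 4.82% lower, and voom 5.96% higher and 1.26% lower. Ankrd37, a HIF target, averaged 3.92 ± 1.12 CPM in cKO and 7.74 ± 1.56 CPM in cHet, and the glucose transporter gene Slc2a1 34.5 ± 5.29 CPM in cKO and 46.6 ± 5.62 CPM in cHet. The collagen prolyl hydroxylase gene P4ha1 averaged 84.3 ± 12.5 CPM in cKO and 62.7 ± 7.79 CPM in cHet. Vhl, whose product marks HIF for degradation, averaged 84.8 ± 22.4 CPM in cKO and 55.5 ± 9.88 CPM in cHet. The HIF subunit gene Hif1a averaged 242 ± 37.2 CPM in cKO and 204 ± 17.7 CPM in cHet, and Car9 1.44 ± 0.503 CPM in cKO and 0.587 ± 0.362 CPM in cHet. None of these 6 passed in edgeR (adjusted p between 0.165 and 0.376).

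A panel of 28 further endothelial markers, 26 of them tested, held genes on both sides. edgeR called 0 of the 26, and at an unadjusted p under 0.05 it passed 6, against 17.1% of all tested genes. DESeq2 called 5 higher and Rasip1 lower, and voom called 5 higher. Over all genes DESeq2 called 9.46% higher and 4.82% lower, and voom 5.96% higher and 1.26% lower. Of the 26 genes, 9 had positive and 17 negative log2 values, with a median of −0.45. Those with cKO above cHet in all libraries were S1pr1, Clec14a, Ramp2, Eng and Sox18, and Vwf alone had cKO below cHet in all libraries. By the same rule 6.46% of all tested genes stood higher and 3.68% lower. S1pr1, the sphingosine phosphate receptor, had 146, 76.0, 166 and 254 CPM in cKO7, cKO9, cKO14 and cKO15. It had 42.5, 15.8, 41.6 and 36.0 CPM in cHet8, cHet11, cHet12 and cHet14 (log2 2.24, SE 0.42, edgeR adjusted p = 0.0507).

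Clec14a, an endothelial lectin, averaged 32.0 ± 11.1 CPM in cKO and 7.94 ± 3.51 CPM in cHet (SD, n = 4 each, edgeR adjusted p = 0.0535). Ramp2, the adrenomedullin receptor partner, averaged 34.8 ± 12.6 CPM in cKO and 8.23 ± 4.46 CPM in cHet (SD, n = 4 each, edgeR adjusted p = 0.0633). Eng, a TGF-beta co-receptor that mesenchymal cells also carry, averaged 28.8 ± 3.59 CPM in cKO and 10.2 ± 5.53 CPM in cHet. Sox18, an endothelial transcription factor, averaged 2.49 ± 0.911 CPM in cKO and 0.811 ± 0.408 CPM in cHet. Rasip1, needed for vessel lumens, averaged 6.48 ± 1.49 CPM in cKO and 9.82 ± 1.37 CPM in cHet. Vwf, the clotting factor of endothelial granules, which was named after its values were seen, averaged 1.06 ± 0.582 CPM in cKO and 2.36 ± 0.658 CPM in cHet. None of these 4 passed in edgeR (adjusted p between 0.0977 and 0.314).

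**Figure D4:**
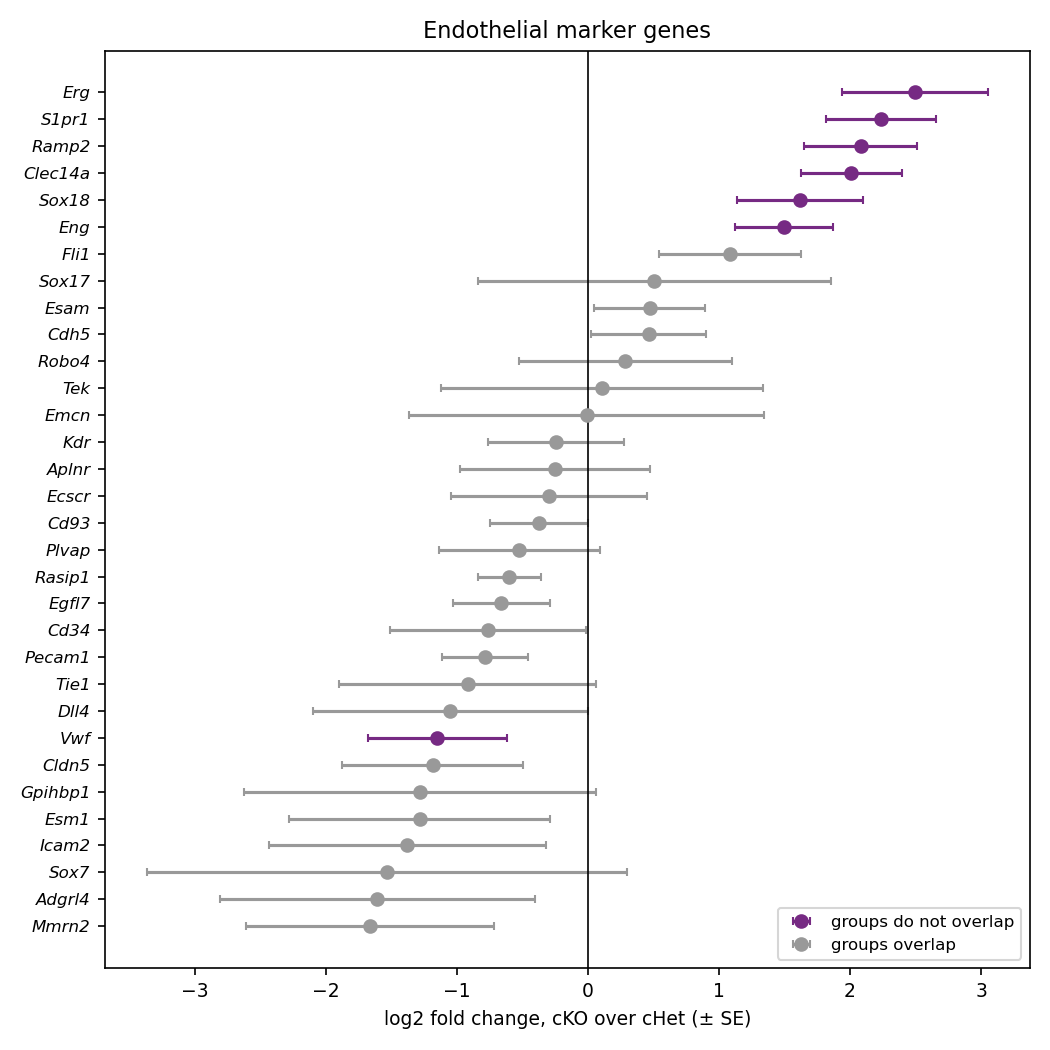
Log2 fold change of cKO over cHet with its SE for the 26 tested genes of the endothelial panel and for Tek, Tie1, Kdr, Pecam1, Cdh5 and Erg, coloured purple where the 2 groups of 4 libraries do not overlap. Erg, S1pr1, Ramp2, Clec14a, Sox18 and Eng lie to the right without overlap, Vwf lies to the left without overlap, and the other genes overlap. Without overlap, 6.46% of all tested genes stood higher and 3.68% lower.

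Endothelial transcripts were uneven between libraries of 1 group. Of the 28 panel genes together with Tek, Tie1, Kdr, Pecam1, Cdh5 and Erg, 34 in all, 20 had their highest cKO value in cKO14 and 20 their highest cHet value in cHet8. Emcn, an endothelial sialomucin named after its values were seen, had 0.111, 0.448, 4.54 and 0 CPM in cKO7, cKO9, cKO14 and cKO15. As for Tek and Kdr, its highest cKO value was in cKO14. Of the 34 genes, 6 were at 0 counts in cKO15, 6 in cKO7, 4 in cKO9 and 1 in cKO14, and 0 to 2 in each cHet library. The summed level of the 28 panel genes was 196 to 450 CPM in cKO and 83.5 to 204 CPM in cHet. S1pr1 alone gave 76.0 to 254 CPM of that sum in cKO and 15.8 to 42.5 CPM in cHet. The sum thus follows a few abundant genes, while 17 of the 26 tested panel genes had negative log2 values. Of the 28 genes 9 were at 0 in at least 1 library, Emcn, Sox7, Sox17, Tal1, Dll4, Adgrl4, Icam2, Tmem252 and Gpihbp1.

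Pericytes, the wall cells that secrete angiopoietin 1 in many tissues, were checked through 11 markers. edgeR called 1 of them higher and 0 lower, against 1.08% higher and 0.0558% lower of all tested genes. The called gene was Cspg4, which encodes the NG2 proteoglycan. It averaged 37.2 ± 9.40 CPM in cKO and 12.6 ± 3.38 CPM in cHet (SD, n = 4 each, edgeR adjusted p = 0.0421). The summed level of the list was 234 to 456 CPM in cKO and 133 to 363 CPM in cHet, and Des was at 0 in a library. Of the 11 markers, 7 had positive and 4 negative log2 values, with a median of 0.07. At an unadjusted p under 0.05 edgeR passed Cspg4, Abcc9 and Kcnj8, 3 of the 11, against 17.1% of all tested genes. The last pair and Rgs5 were named after their values were seen. Abcc9, a subunit of a potassium channel, averaged 46.7 ± 14.9 CPM in cKO and 11.5 ± 5.65 CPM in cHet without overlap (edgeR adjusted p = 0.0658). Kcnj8, the pore of that channel, averaged 35.3 ± 14.7 CPM in cKO and 10.8 ± 6.46 CPM in cHet (edgeR adjusted p = 0.146). Rgs5 averaged 113 ± 57.4 CPM in cKO and 107 ± 36.3 CPM in cHet (edgeR adjusted p = 0.948). The part of these cells in the Angpt1 values was not tested.

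**Figure D5:**
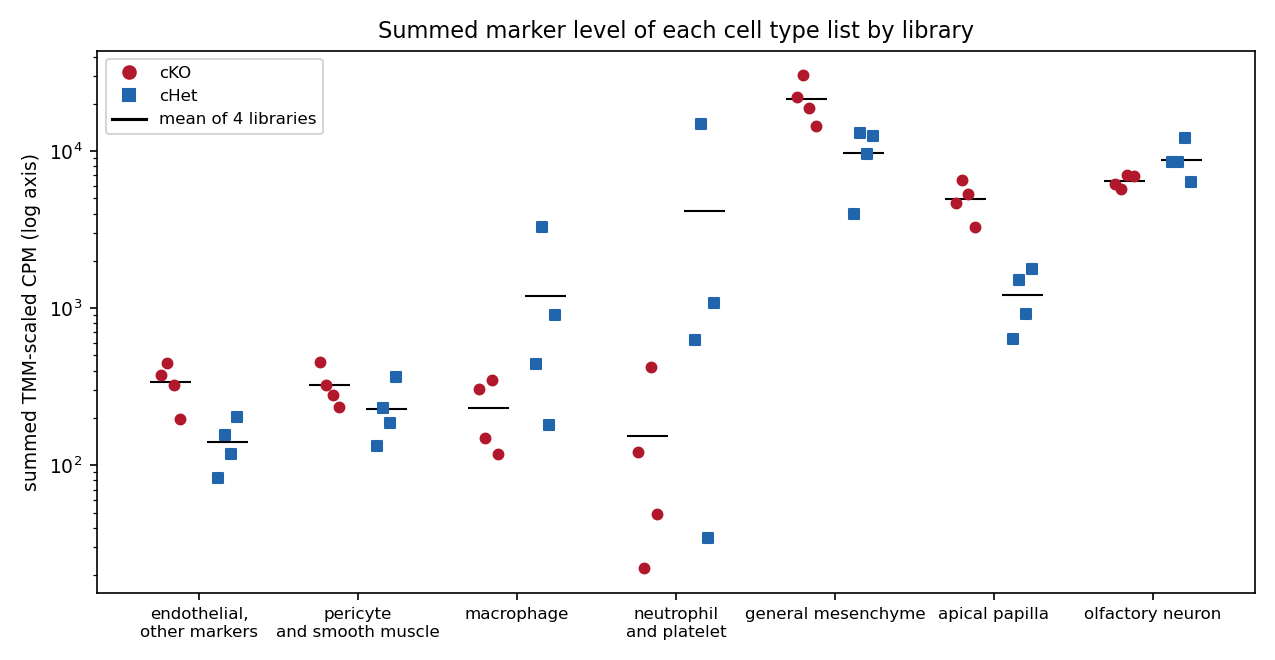
Summed normalised counts of the markers of each cell type list in each library, as CPM on a log axis, cKO as red circles and cHet as blue squares with bars at the mean of 4 libraries. The general mesenchyme and apical papilla sums are higher in every cKO library than in any cHet library, the endothelial and pericyte sums overlap, and the neutrophil and platelet sum reaches 14816 CPM in cHet12.

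Over the 8 libraries, the genes whose log2 CPM most resembled that of Angpt4, among 12530 with a mean of at least 5 CPM, were Nell1 (Pearson r = 0.997), Thbs3 (0.997), Colgalt1 (0.996), Tcf7l1 (0.996) and Bmp2 (0.995). The r values include the difference between the groups, and all points share the same 8 libraries and their scaling. Taking the 5 highest of so many genes over 8 libraries can by itself give high r for unrelated genes. No test was made of these r values, for Angpt4 or for the genes below. Nell1, a secreted osteogenic protein, averaged 216 CPM in cKO and 24.9 CPM in cHet, and Bmp2, a bone morphogenetic protein, 772 CPM in cKO and 70.4 CPM in cHet. For Vegfa the nearest were Prex2 (0.965), Tln1 (0.960), Wipf1 (0.956), Rab22a (0.947) and Lsm14a (0.946). For Cdh5, on its 12 to 28 counts a library, they were Zeb1 (0.944), Cbx3 (0.943), Tgfbr3 (0.930), Cul4b (0.919) and Cc2d2a (0.916).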

How the data were processed

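Whole-number gene counts of 8 libraries were used as the authors deposited them, not normalized. Trimming with Trim Galore and alignment with STAR to GRCm39 (mm39) are named per the submitters' processing notes, with no counting tool given there. Column names match no sample title, so each column was assigned to its group only, and whether the p-values rest on biological or technical spread is unknown. Of 56748 identifiers 52073 matched a symbol, and the identifier with the most counts stood for a symbol. edgeR 4.0.16 in R 4.3.3 (TMM factors, default expression filter, quasi-likelihood F test, genotype as the sole term) was fitted to all genes, with Benjamini-Hochberg adjusted p under 0.05 called. Tests were two-sided. The SE is the fold change over the square root of F, an approximation. Exon lengths per gene are from GENCODE M21 (GRCm38). Mesenchyme and olfactory scores average log2 CPM over each list (prior count 2). The genes and lists were chosen with earlier results of these data known. The named genes were the 10 members, all called list genes and up to 6 genes of smallest p per pathway or endothelial list. Likeness used the 5 highest Pearson r. DESeq2 1.42.0, limma 3.58.1 voom, other scalings, filters, covariates and left-out libraries were alternatives. The fit was tested on simulated counts. Floors of 3 counts and counting limits cover counting error only.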

Additional observations from a re-analysis of the deposited data

Results flagged for a closer look

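Among 20 groups examined, 1 held a library far from its 3 neighbours, and chance flags about 1 in 20. Kdr stood at 11.0 CPM in cKO14, while the other cKO libraries lay between 2.35 and 3.14 CPM, a gap of 0.909 of the range of the group.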

How the results depend on the processing

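edgeR called 232 genes higher and 12 lower. DESeq2 called 1709 and 871, voom 1281 and 271, mesenchyme scaling 5 and 2, the mesenchyme covariate 8 and 2, the olfactory covariate 1 and 0, and no filter left 5 lower. Leaving out 1 library gave 0 to 816 higher and 0 to 144 lower, the most without cKO9 and 0 higher without cHet12, cHet14 or cKO14, where 3352, 3022 and 2934 genes had an unadjusted edgeR p under 0.05. Of the 9 genes taken by function, 3 were called by DESeq2 and by voom, and 0 with RLE factors, mesenchyme scaling or either covariate. Leaving out 1 library gave 0 to 2. The 4 described lists held 8, 10, 15 and 26 genes tested in edgeR, which called 0 of them. DESeq2 called 17 of the list genes, 4 of them lower, and voom 11, 1 of them lower. Calls numbered 2 without a filter, 3 with at least 1 CPM in 4 libraries, and 0 to 7 with 1 library left out. Over all tested genes edgeR called 1.08% higher and 0.0558% lower, DESeq2 9.46% and 4.82%, and voom 5.96% and 1.26%. Log2 values that turned sign were those of Tek (voom −0.52, mesenchyme scaling −1.06, olfactory covariate −0.13, range −0.97 to 0.52 with 1 library left out), Vegfa (mesenchyme scaling −0.71, mesenchyme covariate −0.17, olfactory covariate −0.048), Kdr (voom 0.067) and Cdh5 (mesenchyme scaling −0.53). The cause was not tested. Angpt4 stayed positive in all 17 other fits, between 2.86 and 4.60. It was chosen by its rise in these same libraries, so this sign is no independent support. Angpt1, Angpt2 and Erg also stayed positive in all 17 other fits, while Tie1 and Pecam1 stayed negative. Under voom Tie1 was near 0, at −0.019 (SE 1.05). No paired analysis was possible because the columns carry none of the replicate numbers of the labels. Depth is low behind Cdh5 in every library, with 12 to 28 counts. Single libraries held fewer for Tek, with 0 counts in cKO15, and for Tie1, with 5 in cKO7.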
